A study of Sus scrofa with 9 samples.

Results

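Hypothermic oxygenated perfusion (HOPE), in which a cooled and oxygenated solution is pumped through the coronary vessels of the stored heart, was compared with static cold storage (SCS), in which the heart lies in cold solution without flow. The comparison set the 6 HOPE hearts against the 3 SCS hearts, which together are all 9 hearts of the series with a group in the labels, and asked which genes differed from SCS in both HOPE groups. Of 25149 genes listed, the 11782 with at least 1 TPM (transcripts per 1000000, the share of a heart's transcripts that a gene makes up once gene length is allowed for) in at least 3 of the 9 hearts were tested.

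All hearts came from female American Yorkshire pigs aged 4 to 6 months and were donated after circulatory death with 15 min of warm ischemia. Group 1 (NRP + HOPE 24 h, pigs 27, 28 and 30) was reanimated in the body for 60 min by normothermic regional perfusion (NRP) and stored for 24 h by HOPE at 8 °C and an aortic root pressure of 20 mmHg. Group 2 (NRP + SCS 2 h, pigs 24, 25 and 29) had the same NRP and 2 h of SCS at 4 °C. Group 3 (No NRP + HOPE 2 h, pigs 31, 33 and 34) was procured directly and had 2 h of HOPE. Every heart was then perfused warm with blood on a bench-top circuit for 2 h (normothermic machine perfusion, NMP), and 1 piece of the apex was sequenced from each. No SCS heart was stored for 24 h or procured without NRP, and the HOPE perfusate, unlike the SCS solution, held packed red blood cells and insulin, so that flow, oxygen, temperature and perfusate cannot be told apart. The storage time separates only Group 1 from SCS, and the absence of NRP only Group 3.

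Cold slows the ion pumps and enzymes of the cardiomyocyte, and a heart stored without flow uses up its oxygen and high-energy phosphate. AMP-activated protein kinase reads the ratio of AMP to ATP, the integrin adhesions and intercalated discs hold the cells together, and NF-kB in vessel and immune cells switches on cytokines once the heart is warm again. The aryl hydrocarbon receptor is a ligand-activated transcription factor whose classic target is CYP1A1.

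The labels give the cell type as cardiomyocytes, but the apex tissue also held transcripts of other cells. The cardiomyocyte gene TNNI3 (cardiac troponin I) lay between 7841 and 16475 TPM over the 9 hearts, the endothelial PECAM1 between 99.7 and 234 TPM, and the fibroblast gene DCN (decorin) between 280 and 457 TPM. In such bulk tissue, fewer cells of a type and less RNA per cell cannot be told apart. The share of TPM from the 13 mitochondrially encoded protein genes was 50.2% ± 2.18 (SD, n = 3) in SCS and 49.5% ± 6.93 (SD, n = 6) in HOPE hearts, with the lowest share, 38.2%, in pig 30 (exact two-sided permutation test, p = 0.929).

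HOPE and SCS hearts differed in few genes. With a call defined by limma's adjusted p under 0.05 and a difference beyond 1 in either direction on the log2(TPM + 1) scale, 2 genes (0.017% of those tested) were higher in HOPE hearts, namely HAS1 and a gene listed without symbol, ENSSSCG00000017698. In the other direction 3 genes (0.0255%) were lower, PRKAG2, LIMS1 and BVES. At an unadjusted p under 0.05, 232 genes (1.97%) were higher and 460 (3.9%) lower. All 6 HOPE hearts lay above all 3 SCS hearts for 79 genes (0.671%) and below them for 248 (2.1%). Complete separation gives the smallest p that an exact two-sided permutation test can reach in 84 divisions of the hearts, 0.0238. No more than these 5 genes therefore carry a call corrected for the number of genes, and all 5 calls are lost (0 genes called) when both HOPE groups are given 1 common mean, when the variances are moderated without a trend, when no filter is applied, or when pig 24, 28, 29 or 33 is left out.

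The surplus of lower genes depended on the scaling. The median difference of all genes was -0.09 on the log2(TPM + 1) scale. Genes higher made up 33.5% of those at an unadjusted p under 0.05 with TPM as deposited and 52.3% after median-of-ratios scaling, which moved the median of all genes to 0.0032. Among genes without overlap, the share higher was 24.2% as deposited and 41.8% after that scaling. Rescaling without the mitochondrially encoded genes went the other way, with 26.0% higher at an unadjusted p under 0.05 and 16.1% among genes without overlap. The surplus also depended on single hearts: among genes at an unadjusted p under 0.05 the share higher was 14.4% without pig 30, 53.6% without pig 27 and 50.7% without pig 31. No direction for the transcriptome as a whole is therefore read from these counts.

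**Figure D1:**
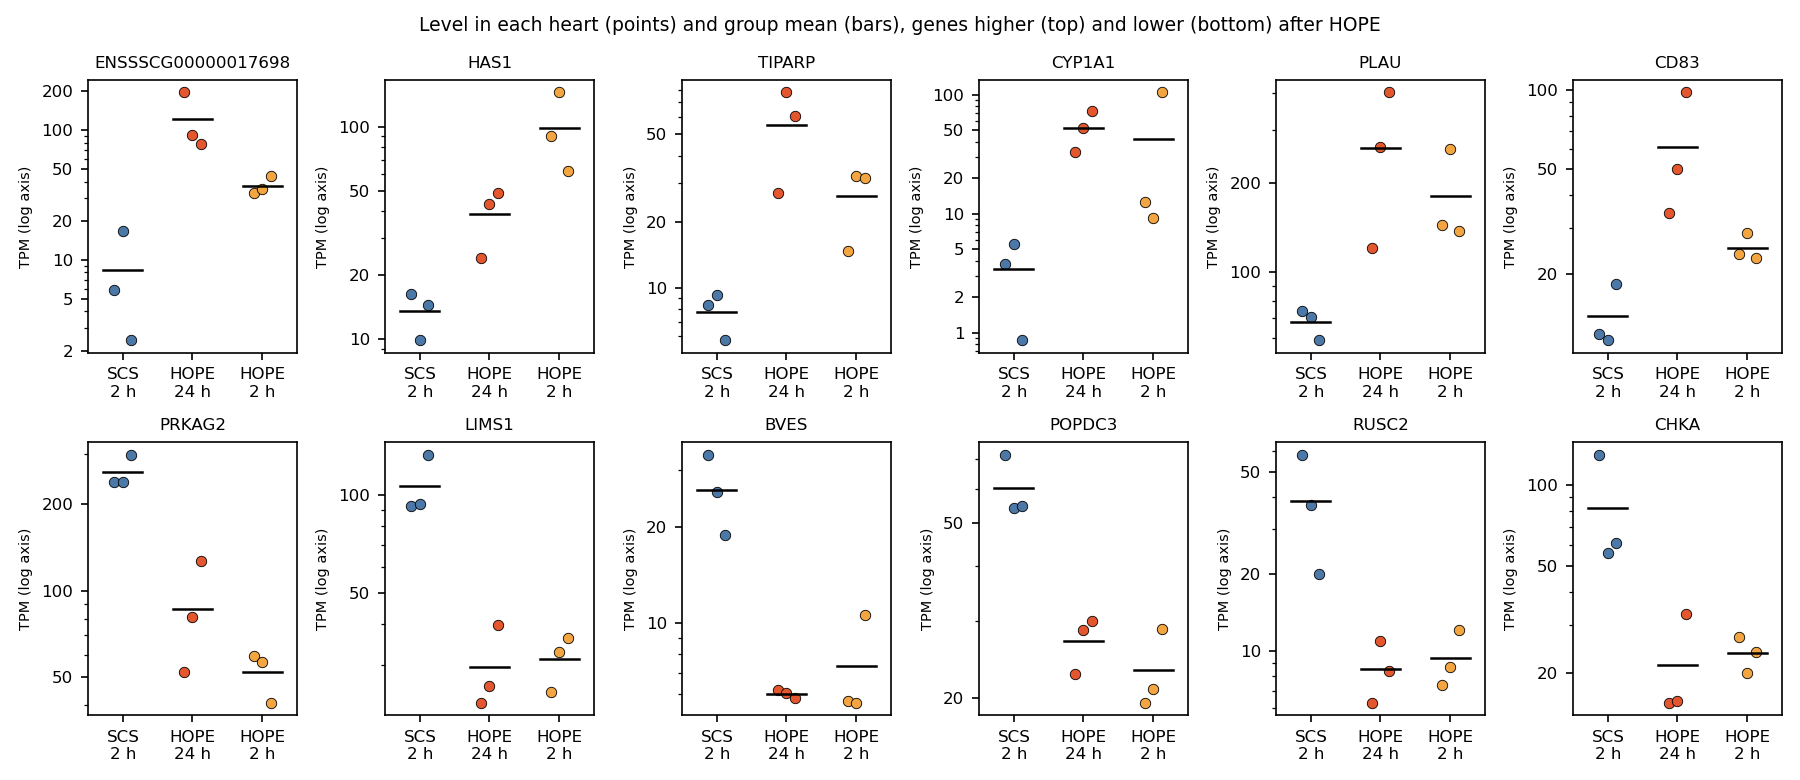
Level of 12 genes in each heart, in TPM on a log axis, by group (blue, SCS 2 h; red, HOPE 24 h with NRP; orange, HOPE 2 h without NRP); black bars are group means, n = 3 hearts each. In all 12 panels the 6 HOPE hearts lie on one side of the 3 SCS hearts; PRKAG2 lies between 40.8 and 127 TPM in HOPE hearts and between 238 and 297 TPM in SCS hearts.

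The genes below are the 15 in each direction, with a symbol, that had the smallest p among those without overlap and with the same sign in both HOPE groups, together with the called gene without symbol. Their groups do not overlap because they were chosen so, and their differences are given as descriptions beside the adjusted p of the fit over all genes.

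Known targets of the aryl hydrocarbon receptor, CYP1A1 and TIPARP, lay higher in every HOPE heart than in any SCS heart. CYP1A1, a cytochrome P450 that oxidizes foreign and endogenous aromatic compounds, stood at 3.78, 5.55 and 0.863 TPM in SCS hearts, at 32.8, 52.3 and 72.1 TPM after 24 h of HOPE, and at 12.6, 9.12 and 104 TPM after 2 h of HOPE. The HOPE mean was 13.9 times the SCS mean, the widest ratio among the 31 genes, but pig 34 alone lay above 100 TPM in its group and the other 2 hearts of that group were the lowest HOPE hearts. The difference was 3.18 (SE 0.62) on the log2(TPM + 1) scale, with an adjusted p of 0.12, and without pig 34 it was 2.65 (adjusted p = 0.022). The adjusted p of CYP1A1 (limma) ran from 0.0074 to 0.56 over 19 alternative settings. TIPARP, a member of the poly(ADP-ribose) polymerase family that the receptor induces and that in turn represses it, stood at 8.36, 9.26 and 5.76 TPM in SCS hearts, at 27.2, 77.7 and 60.6 TPM after 24 h, and at 14.7, 32.3 and 31.8 TPM after 2 h. The lowest HOPE heart was pig 31, and the difference was 2.07 (SE 0.36, adjusted p = 0.072). The adjusted p of TIPARP was 0.0344 without pig 27 and 0.0366 without pig 31, and over 19 alternative settings it ran from 0.0043 to 0.37. The receptor's own transcript, AHR, lay between 3.72 and 6.85 TPM in SCS hearts and between 3.40 and 6.05 TPM in HOPE hearts. It differed by -0.05 and its partner ARNT by -0.09, and both signs turned after median-of-ratios scaling. NQO1, a quinone reductase that NRF2 also controls, differed by 0.27 (0.11 to 0.45 with 1 heart left out). Of the 7 genes tested from the list of this pathway, 2 were higher at an unadjusted p under 0.05, a level that 1.97% of all genes passed in that direction, and none was lower. These 2 were CYP1A1 and TIPARP, which the naming rule had chosen for their small p. The list median was 0.27, or -0.07 without pig 25.

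HAS1, which makes the matrix polymer hyaluronan, rose from 16.4, 9.88 and 14.6 TPM in SCS hearts to 24.1, 43.5 and 49.0 TPM after 24 h of HOPE and to 90.3, 145 and 62.0 TPM after 2 h. The levels of the 2 HOPE groups did not overlap with each other either, the hearts without NRP being the higher, at 99.1 ± 42.2 TPM against 38.9 ± 13.1 TPM (SD, n = 3 each). The difference from SCS was 2.07 (SE 0.32, adjusted p = 0.041), and that between the HOPE groups was -1.30 (24 h minus 2 h; 95% interval -2.09 to -0.51; adjusted p = 0.40). HAS1 was the one called gene of the 9 tested on the hyaluronan list, of which 6 had differences below 0, and the list median was -0.05.

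PLAU, the urokinase-type plasminogen activator, stood at 74.1, 70.9 and 59.0 TPM in SCS hearts, at 121, 263 and 402 TPM after 24 h, and at 144, 260 and 138 TPM after 2 h, a difference of 1.56 (SE 0.34, adjusted p = 0.21). The adjusted p of PLAU (limma) was 0.0455 without pig 27 and ran from 0.0125 to 0.59 over 19 alternative settings. TFPI2, an inhibitor of plasmin and other serine proteases, ranged from 68.7 to 108 TPM in SCS and from 136 to 382 TPM in HOPE hearts. Both PLAU and TFPI2 lay higher in every HOPE heart than in any SCS heart, whereas the levels of PLAT, the tissue-type plasminogen activator and chosen after its values were seen, overlapped between the groups. ANGPTL4, a secreted inhibitor of lipoprotein lipase, ranged from 34.3 to 107 TPM in SCS hearts, from 184 to 244 TPM after 24 h of HOPE and from 123 to 127 TPM after 2 h. DYNLL1, a dynein light chain, differed by 0.77, and the forkhead factor FOXL1, at no more than 2.49 TPM in any heart, by 0.89.

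Several other genes on the higher side are known from immune cells. CD83, a surface protein of activated dendritic cells and lymphocytes, stood at 11.8, 11.2 and 18.4 TPM in SCS hearts, at 34.1, 50.1 and 98.2 TPM after 24 h, and at 23.7, 28.7 and 22.9 TPM after 2 h. The hearts stored for 24 h were the highest, and the difference of 1.40 (SE 0.32) had an adjusted p of 0.23. IL2RA, the alpha chain of the interleukin-2 receptor, lay between 1.66 and 2.17 TPM in SCS and between 2.44 and 15.2 TPM in HOPE hearts. LCK, the T-cell tyrosine kinase, differed by 0.97, STX11, a syntaxin of cytotoxic granule release, by 0.998, and CYSLTR2, a receptor for cysteinyl leukotrienes, by 1.12. C16orf54 differed by 1.12 and stayed at or under 4.69 TPM. The summed level of the 8 T and B lymphocyte markers listed was low in all groups, at 6.79 to 12.8 TPM in SCS, 4.29 to 13.8 TPM in HOPE 24 h and 5.53 to 19.7 TPM in HOPE 2 h hearts. None of the 5 that were tested passed an unadjusted p under 0.05, and the part of cell numbers in IL2RA and LCK was not tested.

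The hairpin gene ssc-mir-155, whose microRNA acts in activated lymphocytes and macrophages, was listed at 6.42, 0 and 7.02 TPM in SCS, 8.38, 12.3 and 37.1 TPM in HOPE 24 h and 9.06, 15.8 and 19.6 TPM in HOPE 2 h hearts, a difference of 2.03 (SE 0.61, adjusted p = 0.54). With 1 heart left out this difference ran from 1.05 to 2.55. On the lower side, ssc-mir-24-1 stood at 31.3, 24.6 and 25.7 TPM in SCS hearts, 8.25, 6.14 and 2.19 TPM after 24 h and 17.0, 17.7 and 19.9 TPM after 2 h. Its 3 groups did not overlap. The libraries were made from poly(A) RNA, so these are reads over the hairpin in longer transcripts and not levels of the mature microRNA.

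ENSSSCG00000017698, for which no symbol was found, rose from 5.84, 16.6 and 2.39 TPM in SCS hearts to 195, 92.0 and 77.7 TPM after 24 h of HOPE and to 32.5, 35.4 and 43.9 TPM after 2 h. The 24 h hearts lay above the 2 h hearts, and those above the SCS hearts, without overlap. The difference from SCS was 3.14 (SE 0.43, adjusted p = 0.034).

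Among the genes on the lower side, PRKAG2, the gamma-2 subunit through which AMP-activated protein kinase binds AMP and ATP, fell from 238, 239 and 297 TPM in SCS hearts to 52.1, 81.0 and 127 TPM after 24 h of HOPE and to 59.3, 56.6 and 40.8 TPM after 2 h. The HOPE mean was 0.269 of the SCS mean, and the highest HOPE heart, pig 30, still lay below the lowest SCS heart. The difference was -1.97 (SE 0.28, adjusted p = 0.034). The other 9 tested genes of the AMP-activated kinase list, including the catalytic subunit PRKAA1 and the gamma-1 and gamma-3 subunits, were not called, and the list median was -0.12 against -0.09 for all genes. CAMKK1, a calcium and calmodulin-dependent kinase kinase, stood at 18.3, 18.0 and 18.2 TPM in SCS hearts and between 3.86 and 11.6 TPM in HOPE hearts, a difference of -1.42 (SE 0.32, adjusted p = 0.23). PFKFB2, the cardiac enzyme that makes the activator of phosphofructokinase, lay at 22.4 to 25.2 TPM in SCS hearts and at 5.96 to 12.7 TPM in 5 HOPE hearts, but pig 34 stood at 24.2 TPM, within the SCS range.

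Adhesion proteins followed. LIMS1 (PINCH1), an adaptor that ties integrin-linked kinase to focal adhesions, fell from 92.6, 93.6 and 133 TPM in SCS hearts to 23.0, 25.9 and 39.8 TPM after 24 h and to 24.8, 32.9 and 36.4 TPM after 2 h. The 2 HOPE groups overlapped with each other and differed by -0.11 (95% interval -0.75 to 0.54; adjusted p = 0.996), while the difference from SCS was -1.78 (SE 0.26, adjusted p = 0.034). ITGA5, the alpha-5 chain of the fibronectin receptor, stood at 418 to 612 TPM in SCS and 206 to 403 TPM in HOPE hearts, a difference of -0.94 (SE 0.23, adjusted p = 0.31).

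A pair of Popeye domain genes stood on the lower side. BVES (POPDC1), a cAMP-binding membrane protein of striated muscle, fell from 33.5, 25.7 and 18.9 TPM in SCS hearts to 6.18, 6.05 and 5.85 TPM after 24 h of HOPE and to 5.71, 5.65 and 10.6 TPM after 2 h. The 5 HOPE hearts other than pig 34 lay between 5.65 and 6.18 TPM, and the difference was -1.81 (SE 0.28, adjusted p = 0.041). POPDC3 stood at 71.8, 54.2 and 54.8 TPM in SCS hearts, 22.7, 28.5 and 29.9 TPM after 24 h and 19.5, 21.0 and 28.8 TPM after 2 h, again without overlap, with a difference of -1.24 (SE 0.24, adjusted p = 0.12). In RefSeq's pig annotation (Sscrofa11.1) both genes lie on chromosome 1 with 1 protein-coding gene between them. The remaining family member, POPDC2, was at 13.5 to 26.0 TPM in SCS and 11.4 to 44.2 TPM in HOPE hearts and differed by -0.03, a sign that turned after median-of-ratios scaling. The connexin genes GJA1 and GJA5, which build the gap junctions, differed by -0.55 and -0.79 (adjusted p = 0.81 and 0.84). With 1 heart left out these ran from -0.64 to -0.42 and from -1.03 to -0.43. Of the 12 genes tested from the list of Popeye, connexin and intercalated disc genes, 4 were lower at an unadjusted p under 0.05, a level that 3.9% of all genes reached in that direction, and none was higher. These were BVES and POPDC3, which the naming rule had chosen for their small p, and GJA1 and GJA5. The list median was -0.12, but 0.026 without pig 27, -0.035 without pig 31 and -0.012 after median-of-ratios scaling.

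CHKA, choline kinase alpha, which starts phosphatidylcholine synthesis, stood at 130, 55.6 and 60.6 TPM in SCS, 15.4, 15.7 and 32.9 TPM in HOPE 24 h and 27.0, 19.9 and 24.0 TPM in HOPE 2 h hearts, a difference of -1.76 (SE 0.33, adjusted p = 0.11). SLC19A2, a thiamine transporter, ranged from 77.2 to 107 TPM in SCS and from 24.2 to 65.1 TPM in HOPE hearts. XDH, the xanthine dehydrogenase that forms uric acid and can turn to an oxidase that makes reactive oxygen, ranged from 61.6 to 87.1 TPM in SCS and from 23.6 to 61.1 TPM in HOPE hearts, so that its groups were separated by less than 1 TPM. RUSC2 stood at 58.2, 37.1 and 19.97 TPM in SCS hearts and at 6.32 to 12.1 TPM in HOPE hearts, a difference of -1.89 (SE 0.33, adjusted p = 0.075). SYT6, a synaptotagmin, differed by -1.84, ARRDC2, an arrestin-domain protein, by -1.26, NHLRC2 by -1.12 and the forkhead factor FOXP4 by -1.19.

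**Figure D2:**
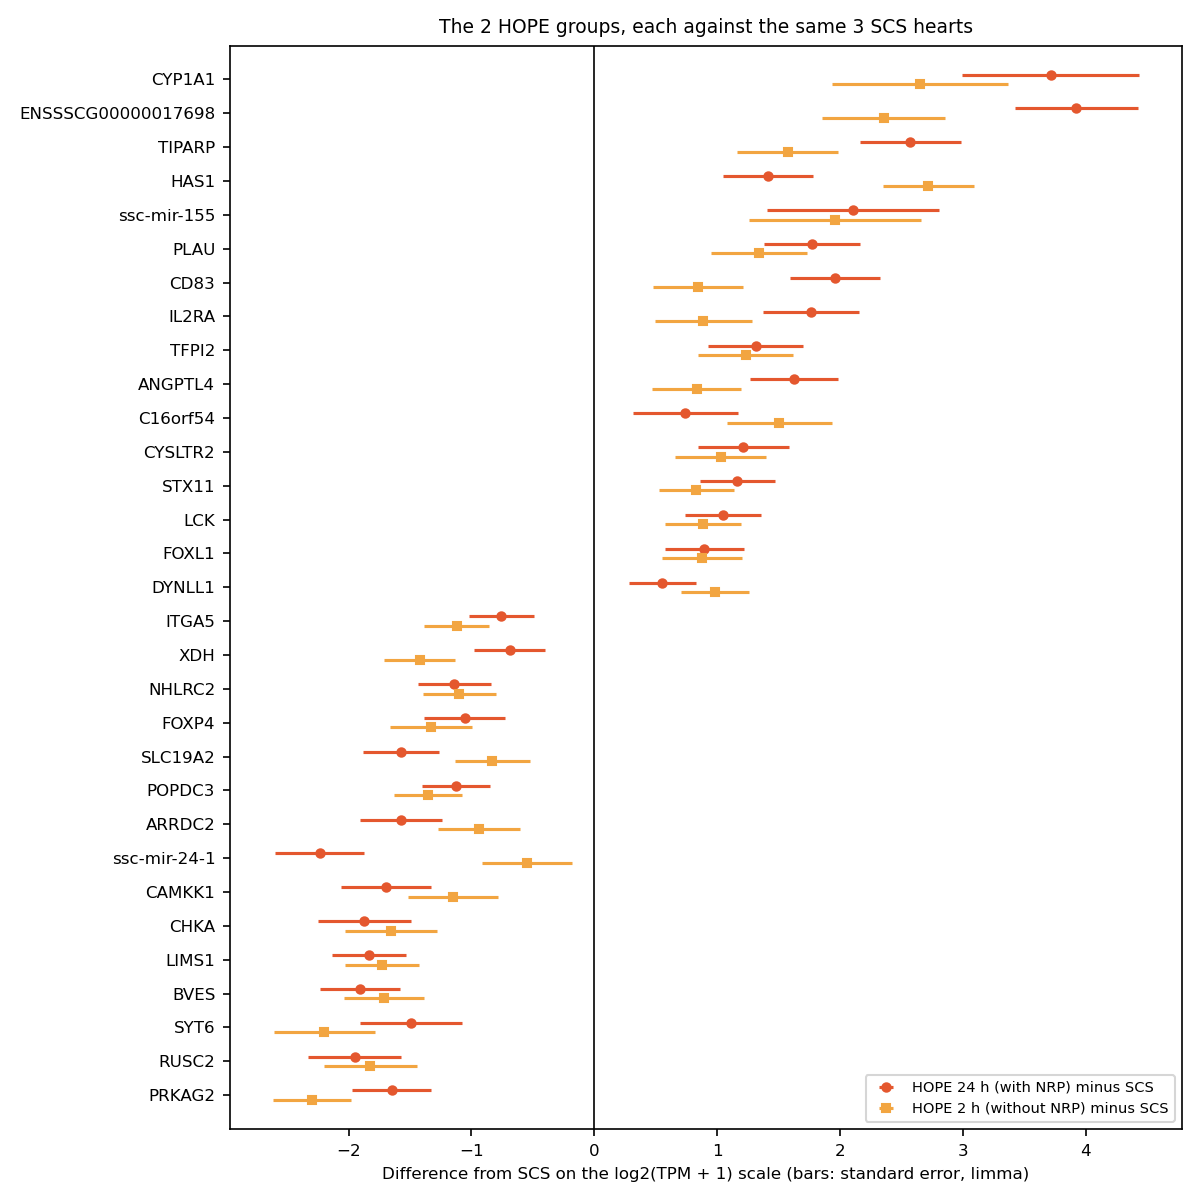
Difference of each HOPE group from the same 3 SCS hearts on the log2(TPM + 1) scale for the 31 genes (red circles, HOPE 24 h with NRP; orange squares, HOPE 2 h without NRP); bars are standard errors from limma. The 24 h values run from -2.24 to 3.92 and the 2 h values from -2.30 to 2.72, with both groups on the same side of 0 for every gene, as the choice of genes requires.

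The size of the difference was compared between the HOPE groups, which share the SCS hearts as their control. The larger of the 2 differences was that of the 24 h group for 22 of the 31 genes. The share among all genes was not determined, so this count is a description only. No difference between the HOPE groups among these 31 genes passed an adjusted p under 0.05 (limma), while 9 had an unadjusted p under 0.05, beside 708 (6.01%) of all genes tested, and the smallest adjusted p was 0.23, for ssc-mir-24-1. The spread between 3 hearts does not show that the 2 groups acted alike: for PRKAG2 the 95% interval of the difference, 24 h minus 2 h, ran from -0.04 to 1.33, and for CYP1A1 from -0.48 to 2.61. With the stricter demand that each HOPE group's own difference exceed 1, 13 genes without overlap were higher and 34 lower. Of these, 7 and 16 carried a symbol. The latter included 6 genes outside the naming rule, chosen after their values were seen: LRRC2, CARNS1, CDK18, STAC, SELENOI and PJA2. SELENOI, which makes phosphatidylethanolamine, differed by -1.14 after 24 h and by -1.60 after 2 h.

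Other genes stood apart in 1 HOPE group. Over all genes tested, 6 (0.0509%) differed between the HOPE groups at an adjusted p under 0.05, and of these the 2 with a symbol were on the lists. DNAJB1, the HSP40 partner of HSP70, stood at 310, 123 and 189 TPM in the HOPE hearts without NRP, against 38.0, 42.5 and 43.5 TPM in SCS hearts and 45.5, 38.4 and 43.8 TPM after 24 h of HOPE. The difference between the HOPE groups was -2.16 (24 h minus 2 h; 95% interval -2.84 to -1.48; adjusted p = 0.022), and the 24 h hearts overlapped with the SCS hearts. PTX3, a soluble pattern recognition protein, stood at 10.2, 22.9 and 10.5 TPM without NRP, at 71.9, 104 and 125 TPM after 24 h, and at 97.9, 122 and 35.4 TPM in SCS hearts, a difference between the HOPE groups of 2.76 (adjusted p = 0.048). In both cases the group without NRP was the one apart, and it was also the one with 2 h of HOPE, so that NRP and storage time cannot be told apart.

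For some genes of the cytokine and NF-kB lists the 2 HOPE groups gave unlike differences from SCS, none of which was shown to differ after correction. CXCL2, a neutrophil chemokine, stood at 185, 137 and 50.1 TPM in SCS hearts, at 804, 1468 and 202 TPM after 24 h of HOPE, and at 111, 144 and 56.1 TPM after 2 h, so that its difference from SCS was 2.504 in the 24 h group and -0.17 in the 2 h group. TNFAIP3, a feedback inhibitor of NF-kB, gave 1.79 and -0.25 in the same order, and IER3 1.52 and -0.23. The difference between the HOPE groups had adjusted p-values of 0.27, 0.14 and 0.082 for these 3 genes, and none passed. CXCL8 gave 2.48 and 0.89, and the NF-kB subunit REL 1.05 and 0.23. The median difference of the 9 genes tested on the NF-kB and cytokine ligand list, which also holds the cyclooxygenase PTGS2, was 1.17 after 24 h and 0.11 after 2 h, beside -0.12 and -0.07 for all genes. SELP, the P-selectin of endothelium and platelets, gave 0.20 and -2.37.

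**Figure D3:**
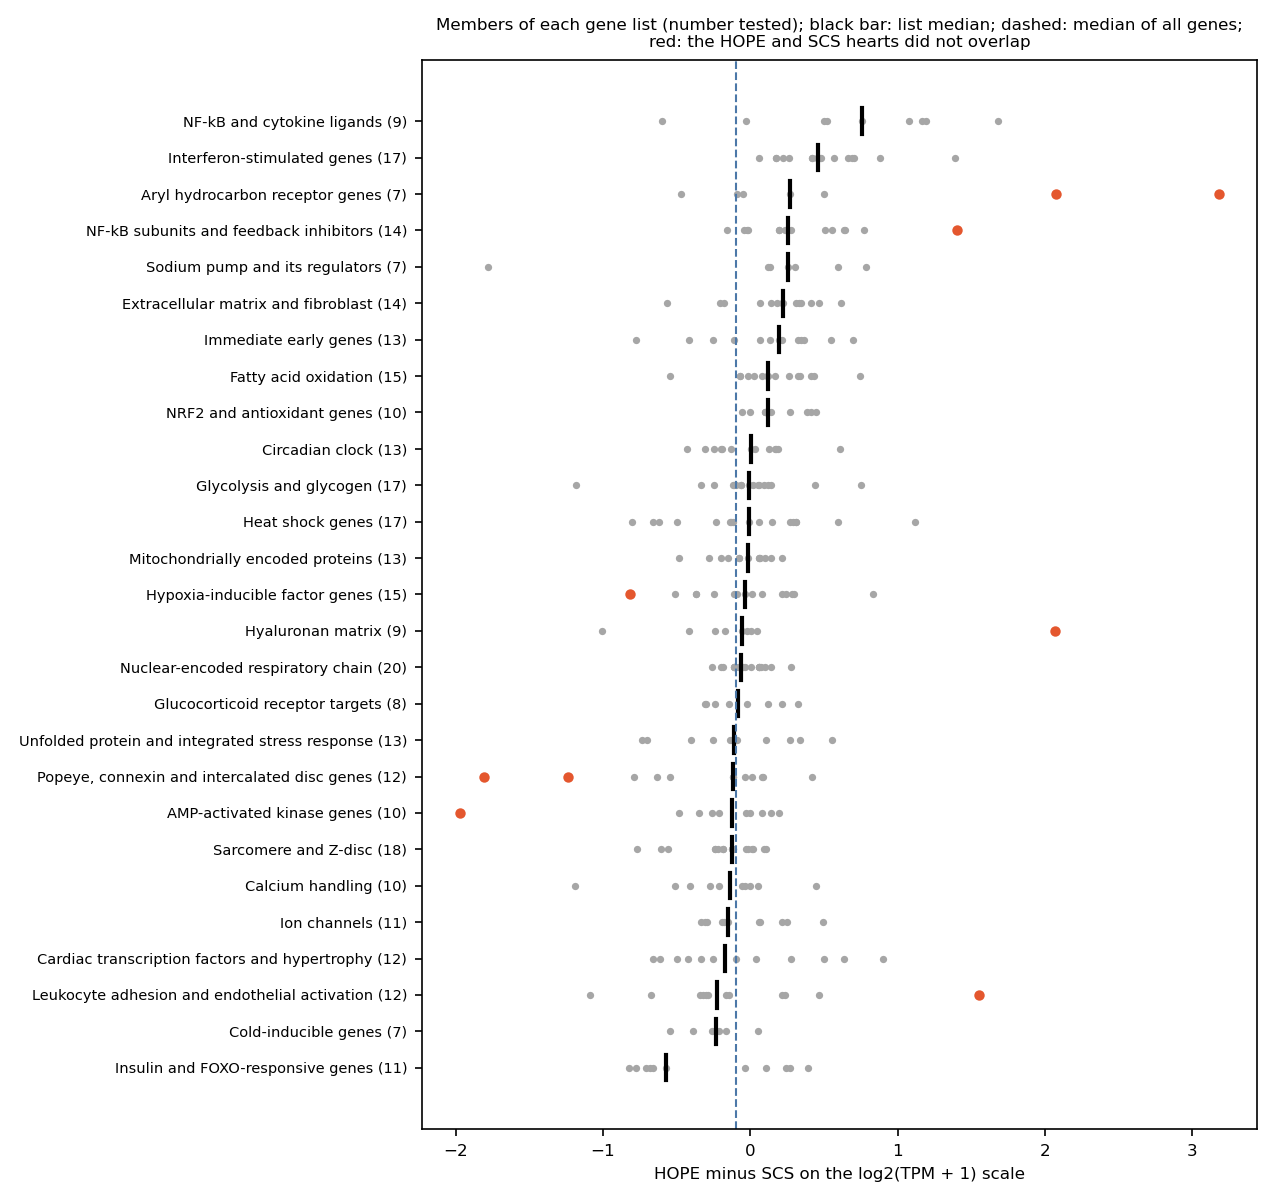
Difference between HOPE and SCS hearts on the log2(TPM + 1) scale for the tested members of 27 gene lists (number tested in brackets); black bars are list medians, the dashed line is the median of all genes at -0.09, and red points are genes without overlap between HOPE and SCS hearts. The insulin and FOXO-responsive list has the lowest median, -0.57, and the NF-kB and cytokine ligand list the highest, 0.76.

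Of 552 genes on 37 lists, 415 were in the table and 370 were tested. Called members occurred on 3 lists, those of HAS1, PRKAG2 and BVES. Another 15 lists held no member at an unadjusted p under 0.05, a level that 1.97% of all genes passed as higher and 3.9% as lower. Among them were the respiratory chain, mitochondrially encoded, ion channel, circadian clock, cold-inducible and interferon-stimulated genes. At those shares a short list can hold none, so the count is not read as a result about these lists. The median of the cold-inducible list was -0.23 over 7 genes, beside -0.09 for all genes, and it was -0.13 without pig 27 and -0.11 after median-of-ratios scaling.

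Among the lists other than cell type markers, the insulin and FOXO-responsive list had the lowest median, -0.57 over 11 genes, with 4 lower at an unadjusted p under 0.05, beside 3.9% of all genes, and none called. The median was -0.28 without pig 31 and -0.036 without a filter on low values. PDK4, which blocks glucose oxidation at pyruvate dehydrogenase, stood at 314 to 379 TPM in SCS and 101 to 377 TPM in HOPE hearts, a difference of -0.71 (adjusted p = 0.74). FBXO32, the ubiquitin ligase atrogin-1 of muscle protein breakdown, differed by -0.78 and the hexokinase HK2 by -0.82. PDK4 and FBXO32 are genes that insulin represses, whereas HK2 is one that insulin induces. Insulin was part of the HOPE perfusate, and its part in these values was not tested.

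On other lists single genes stood out. ATP1B4, a muscle protein related to the beta subunits of the sodium pump, stood at 40.6, 17.1 and 36.5 TPM in SCS, 5.201, 8.64 and 2.88 TPM in HOPE 24 h and 7.005, 12.2 and 18.8 TPM in HOPE 2 h hearts, a difference of -1.78 (SE 0.38, adjusted p = 0.19), and only pig 34 overlapped with SCS. FAS, a death receptor, lay at 4.63 to 6.46 TPM in SCS and at 6.49 to 15.7 TPM in HOPE hearts, without overlap. HIF1A, the oxygen-regulated subunit of hypoxia-inducible factor, lay at 88.8 to 121 TPM in SCS and at 31.4 to 86.4 TPM in HOPE hearts, while EGLN3, one of that factor's targets, differed by 0.83. Of the 15 genes tested on the hypoxia-inducible factor list, 7 had a positive and 8 a negative difference, with a median of -0.04. The adjusted p-values of FAS, HIF1A and EGLN3 were 0.77, 0.81 and 0.78. The sarcomere genes MYOM2 and ANKRD1 differed by -0.77 and -0.61 (adjusted p = 0.73 and 0.78), and SLN, sarcolipin, by -1.19 (adjusted p = 0.79).

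Markers of other cell types are given beside these results, and none of them was called in the main fit. HBB, beta-globin, stood at 70.8, 132 and 78.4 TPM in SCS hearts, at 73.5, 339 and 420 TPM after 24 h of HOPE, and at 220, 368 and 220 TPM after 2 h. All HOPE hearts but pig 27 exceeded the SCS hearts, and the difference was 1.40 (SE 0.45, adjusted p = 0.61). Without pig 27 the difference of HBB was 1.79 and passed the call (adjusted p = 0.0489), as it did in only 1 of 19 alternative settings. ALAS2, the first enzyme of heme synthesis in red cells, differed by 1.03 (adjusted p = 0.79), and 2 of the 4 erythroid and platelet markers tested were higher at an unadjusted p under 0.05, beside 1.97% of all genes. Their summed level ran from 74.5 to 138 TPM in SCS, 76.1 to 433 TPM in HOPE 24 h and 228 to 381 TPM in HOPE 2 h hearts. The HOPE perfusate contained packed red cells, and the part of carried-over blood in the higher genes was not tested.

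S100A9, a neutrophil protein, stood at 8.02, 4.78 and 1.79 TPM in SCS hearts, at 0.356, 0.774 and 2.65 TPM after 24 h, and at 0.343, 0.199 and 0 TPM after 2 h, with pig 30 inside the SCS range. The difference was -1.76 (SE 0.40, adjusted p = 0.23). Of 18 alternative settings, only limma's array weights, by which more variable hearts count less, gave a call (adjusted p = 0.0216). Those weights stopped before convergence and called 20 genes higher and 63 lower. The summed level of the neutrophil markers was 4.85 to 14.5 TPM in SCS, 1.52 to 5.46 TPM in HOPE 24 h and 0.799 to 4.26 TPM in HOPE 2 h hearts, and their defining markers MPO and CSF3R were listed at 0 in every heart. Of 18 list genes at 0 in all hearts, some, such as SDHA of the respiratory chain, are used by every cell, so a 0 in this table is not read as absence. None of the 5 macrophage markers tested passed an unadjusted p under 0.05, their median was 0.05, and 1 of them, MRC1, did not overlap, beside 2.1% of all genes in that direction, at 3.78 to 6.30 TPM in HOPE and 6.79 to 8.08 TPM in SCS hearts (adjusted p = 0.88). All 10 endothelial markers tested had a negative difference, with a median of -0.32 (-0.18 without pig 31, -0.21 after median-of-ratios scaling) and none at an unadjusted p under 0.05. PECAM1 differed by -0.44 (-0.55 to -0.29 with 1 heart left out). The summed level of the endothelial markers was 797 to 953 TPM in SCS, 440 to 933 TPM in HOPE 24 h and 472 to 984 TPM in HOPE 2 h hearts. All 17 interferon-stimulated genes tested had a positive difference, with a median of 0.46, but the summed level was 384 to 583 TPM in SCS, 383 to 585 TPM in HOPE 24 h and 336 to 2893 TPM in HOPE 2 h hearts, and pig 34 gave the highest value of IFIT1 (272 TPM) and MX1 (335 TPM). Without pig 34 the median was 0.02.

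**Figure D4:**
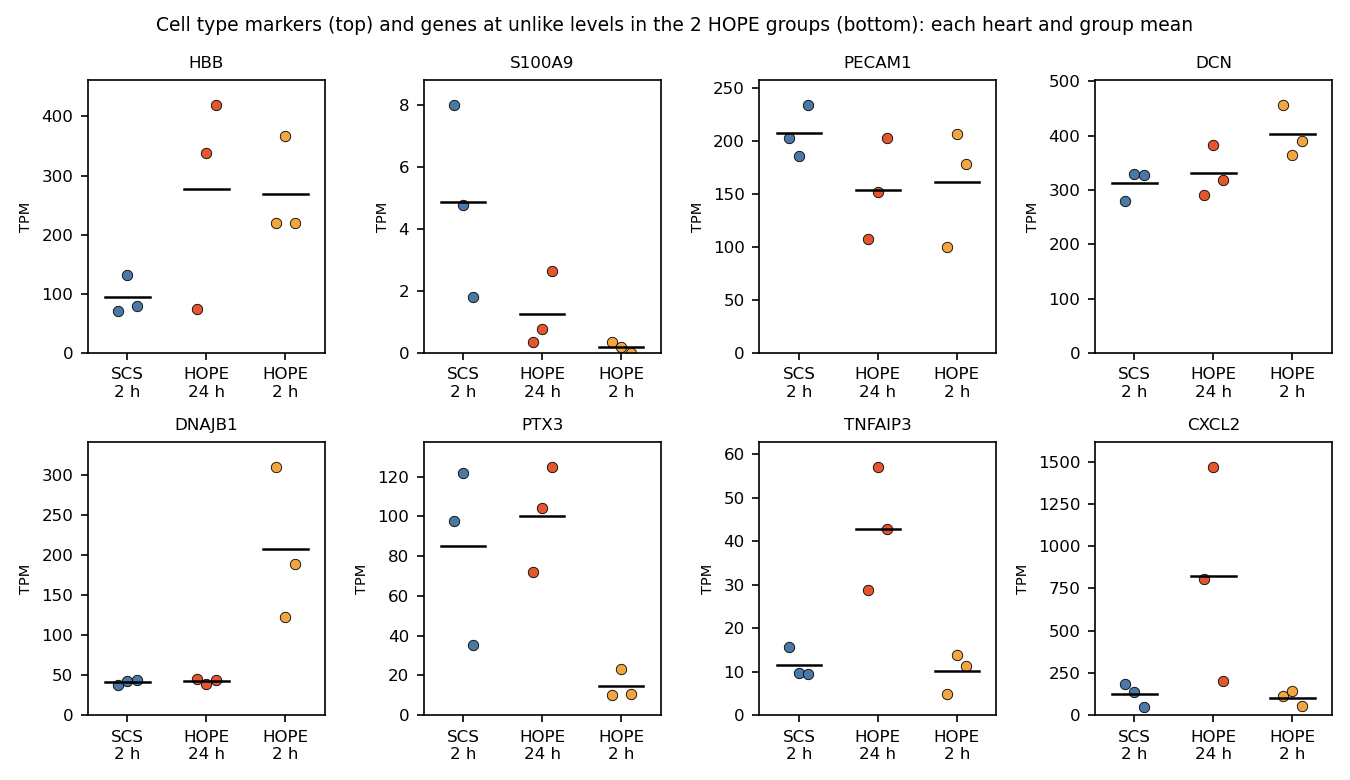
Level in TPM (linear axis from 0) of 4 cell type markers and 4 genes at unlike levels in the 2 HOPE groups, by heart and group, with black bars for group means, n = 3 hearts each. HBB is above the SCS hearts in 5 of 6 HOPE hearts, DNAJB1 stands apart in HOPE 2 h at 123 to 310 TPM, and TNFAIP3 and CXCL2 are highest in HOPE 24 h.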

How the data were processed

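Bulk RNA sequencing of 1 apex biopsy per heart was analysed for 9 hearts from separate pigs, grouped by the pig number and treatment in the labels. A further 9 columns of the table were not tied to a sample and not used. According to the methods, the authors enriched poly(A) RNA, trimmed reads with Trimmomatic 0.36, mapped them with STAR 2.5.2b to the Ensembl pig genome (build not given in the sources used here) and counted unique exonic reads with featureCounts (Subread 1.5.2). The authors deposited TPM values, which sum to 1000000 in each heart and keep no read counts, so depth is unknown and no interval or floor based on counts could be set. Unique counting drops reads that map equally well to related genes, such as globins or the CYP1A pair. How many were lost is not known, which leaves those levels uncertain.

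Values were analysed as log2(TPM + 1) with limma 3.58.1 in R 4.3.3, fitting the 3 group means to all 9 hearts together and taking the mean of both HOPE groups minus the SCS mean. Variances were moderated with a trend (eBayes), tests were two-sided and p-values were Benjamini-Hochberg adjusted over all 11782 genes. The authors' own test, DESeq2 on counts, does not suit TPM. A pseudocount of 1 understates the fold of low genes. A called gene had an adjusted p under 0.05 and an absolute difference over 1. Single values were compared by exact two-sided permutation tests with scipy in Python. The fit was tested on simulated data. Alternatives were a pseudocount of 0.1, no filter or a mean of at least 5 TPM, median-of-ratios scaling, rescaling without mitochondrially encoded genes, 2 group means, no trend, array weights, each heart left out, and each HOPE group alone.

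Named genes were, per direction, the 15 with a symbol and the smallest p among those without overlap and with 1 sign in both HOPE groups, called genes without symbol (at most 5), and, per gene list, the called or up to 3 members of smallest p. Other members of a named gene's list were also named. Symbols missing in the table were looked up by gene ID, which gave 754 of 12006. The members and the 37 gene lists were chosen with earlier results of these data known. No genome sequence of the table's build was used here, and no coordinates are given. Some results of the named lists are not reported here.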

Additional observations from a re-analysis of the deposited data

Results flagged for a closer look

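In 2 listed genes the effect differed between the HOPE groups by a test of the difference itself (limma, adjusted p under 0.05). DNAJB1 was lower after 24 h with NRP than after 2 h without NRP by 2.16 on the log2(TPM + 1) scale, a difference of -2.16. PTX3 was higher by 2.76. Both groups were compared with the same SCS hearts, and NRP and storage time cannot be told apart.

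A single heart stood far from the other 5 HOPE hearts (gap over range above 0.625, on log2(TPM + 1)) in 5 of the 66 values examined, where chance gives about 1 in 20. Pig 34 was the high heart for BVES, at 10.6 TPM, and for SLN, at 4.44 TPM. Pig 27 was the low heart for HBB, at 73.5 TPM. Pig 28 was the low heart for TNNI3, at 7841 TPM, and pig 30 the high heart for NQO1, at 34.1 TPM. BVES in pig 34 was still below every SCS heart.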

How the results depend on the processing

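The counts called (2 higher, 3 lower) were fragile. They were 1 and 2 with a pseudocount of 0.1, 0 and 0 without a filter, with 2 group means and without a trend, 3 and 4 at a mean of at least 5 TPM, 0 and 5 without mitochondrially encoded genes, and 20 and 63 with array weights. With 1 HOPE group alone they were 8 and 5 (24 h) and 0 and 3 (2 h). Leaving out 1 heart gave 0 to 5 higher and 0 to 5 lower. At an unadjusted p under 0.05, the settings with 0 calls in both directions left between 387 genes (without pig 24) and 932 (without a filter). Across 19 alternatives PRKAG2 and LIMS1 were called in 10, ENSSSCG00000017698 in 8, HAS1 and BVES in 5. Of genes not called in the main fit, TIPARP was called in 6, CYP1A1 in 3, RUSC2, POPDC3 and PLAU in 2, and HBB in 1 (without pig 27). CHKA, SYT6, CAMKK1, CD83, ssc-mir-24-1, S100A9, NHLRC2, XDH, FOXP4, IL2RA, STX11, TFPI2, CYSLTR2 and PFKFB2 were called in 1, with array weights. The differences of the 5 called genes kept their sign throughout and, with 1 heart left out, ran from -2.13 to -1.81 (PRKAG2), -1.89 to -1.61 (LIMS1), 2.58 to 3.76 (ENSSSCG00000017698), 1.87 to 2.22 (HAS1) and -2.01 to -1.62 (BVES).

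Genes with all HOPE hearts above and below all SCS hearts (79 and 248) numbered 34 and 162 at a mean of at least 5 TPM, 216 above after median-of-ratios scaling, 515 below without mitochondrially encoded genes, 295 and 862 for the 24 h group alone, 523 and 1208 for the 2 h group alone, where fewer hearts have to separate, and 88 to 248 and 258 to 744 with 1 heart left out. Pig 30 gave the 744. The differences of AHR, ARNT and POPDC2 turned positive after median-of-ratios scaling (0.051, 0.0134 and 0.0805), AHR also with array weights (0.0931), and with 1 heart left out they ran from -0.19 to 0.17, -0.21 to 0.0534 and -0.28 to 0.19. In the 24 h group alone SELP (0.20), PTX3 (0.38) and POPDC2 (0.19) were positive, and in the 2 h group alone ARNT was at 0.0017, IER3 at -0.23, TNFAIP3 at -0.25 and CXCL2 at -0.17. The difference in mitochondrially encoded share, HOPE minus SCS, ran from -1.90 to 1.53 percentage points with 1 heart left out. The cause of these shifts was not tested. Array weights stopped before convergence. No paired analysis was possible because no pig is shared between groups. Depth is unknown, and 3 hearts per group limit every value.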
